A study of Mus musculus with 4 samples.

Results

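Transcript levels of 10 genes of the canonical Wnt pathway, of 22266 genes in the table, were compared between mouse embryonic stem cells with and without deletion of Cbx2. The genes were picked by symbol: the effectors Ctnnb1, Lef1, Tcf7 and Tcf7l1, and the targets and feedback genes Axin2, Sp5, Nkd1, Dkk1, Rnf43 and Znrf3. All 10 symbols were found, each on 1 row. The cells derive from the female line PGK12.1, were grown in serum with leukemia inhibitory factor, and in all 4 libraries carry the CBX2fl/fl-HaloTag alleles. CBX2 is a chromodomain subunit of a Polycomb repressive complex. The control group (EtOH, n = 2, labelled wildtype) received EtOH and is called day 0. The treated group (OHT, n = 2, labelled knockout) is called day 2 and received 4-hydroxytamoxifen (4-OHT) at 1.0 µM over 48 hours. The labels name neither the recombinase nor the deleted exons, and are silent on whether replicates are separate cultures. The p-values therefore measure only spread between libraries, which may be technical. All 4-OHT libraries carry the knockout label, and deletion cannot be told apart from drug exposure or days of growth.

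In canonical Wnt signaling a secreted ligand binds Frizzled and LRP receptors, which stops a cytoplasmic destruction complex from degrading beta-catenin. Beta-catenin then enters the nucleus and binds the TCF/LEF transcription factors, turning them from repressors into activators. Targets such as Axin2 and Znrf3 act back to dampen the signal. In mouse embryonic stem cells the pathway supports self-renewal, largely by relieving repression of pluripotency genes by TCF7L1.

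Promoter sequence is shown first for the gene with the largest log2(TPM + 1) difference among those tested and for those that hold a full TCF/LEF binding motif. RefSeq promoter windows (GRCm38.p6, from 250 bases before to 50 bases after a start) were found for 9 of the 10 genes, 15 windows in all. The letters CTTTGAT and CTTTGAA, which TCF/LEF proteins bind, were searched on both strands, as was the shorter CTTTG that both contain. Below are the 250 bases before the first listed start of Lef1 (chr3:131110047-131110296, plus strand), of Sp5 (chr2:70474673-70474922, plus strand) and of Dkk1 (chr19:30549497-30549746, minus strand), each 5′ to 3′ along its gene. Capitals mark every match on either strand.
Lef1: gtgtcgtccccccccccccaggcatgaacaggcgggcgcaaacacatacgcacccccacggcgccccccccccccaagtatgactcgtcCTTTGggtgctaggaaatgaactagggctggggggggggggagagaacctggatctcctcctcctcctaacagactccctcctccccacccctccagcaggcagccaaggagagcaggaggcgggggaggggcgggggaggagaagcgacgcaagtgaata
Sp5: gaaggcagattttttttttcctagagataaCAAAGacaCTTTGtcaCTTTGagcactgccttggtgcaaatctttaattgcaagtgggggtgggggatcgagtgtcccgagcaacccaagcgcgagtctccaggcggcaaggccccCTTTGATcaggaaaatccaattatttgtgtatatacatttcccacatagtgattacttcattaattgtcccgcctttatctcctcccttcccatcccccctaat
Dkk1: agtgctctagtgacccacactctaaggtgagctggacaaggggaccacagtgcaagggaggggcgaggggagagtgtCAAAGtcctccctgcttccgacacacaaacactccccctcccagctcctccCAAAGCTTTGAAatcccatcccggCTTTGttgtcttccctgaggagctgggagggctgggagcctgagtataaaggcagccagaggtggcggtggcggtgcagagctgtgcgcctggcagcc
Counting the RefSeq start of the window as 1 and the base before it as -1, Sp5 held CTTTGAT once, with its first base at -104. Dkk1 held CTTTGAA once, with its first base at -117. These starts can differ from the GENCODE gene bounds given below. The GENCODE start of Dkk1 (30549665, minus strand) lies within its printed bases, so part of them, including the CTTTGAA, is inside that gene. The GENCODE start of Lef1 (131110471) lies beyond its window. CTTTGAT or CTTTGAA stood in 8.65% of all 32851 windows and in 2 of the 15 windows of the 9 genes, those of Sp5 and Dkk1. The shorter CTTTG stood in 53.9% of all windows and in 7 of the 15, which belong to Lef1, Sp5, Dkk1 and Tcf7l1. These matches are descriptions of the letters in the windows, not measured binding sites.

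The values are the authors' TPM (a share of all transcripts, corrected for transcript length), so levels can be set side by side between genes. The unit does not carry depth, which is unknown here. Cbx2 itself read 2.29 and 2.71 TPM (EtOH) against 0.749 and 1.14 TPM (OHT), both OHT libraries below both EtOH libraries, in the direction of the labels. On the log2(TPM + 1) scale Cbx2 differed by -0.85 (SE 0.19), which did not pass the threshold of 0.05 (limma adjusted p = 0.265). All 9 embryonic stem cell markers were present, summing to 9704 and 9622 TPM (EtOH) against 12555 and 11271 TPM (OHT). The 10 fibroblast and feeder markers summed to 14.4 and 13.7 TPM (EtOH) against 18.4 and 22.7 TPM (OHT), with Postn at 0 in all libraries and Lum and Prrx1 under 0.1 TPM. Primitive streak markers summed to 12.6 and 12.5 TPM (EtOH) against 11.6 and 11.6 TPM (OHT), lower in both OHT libraries. Trophoblast markers summed to 68.6 and 69.4 TPM (EtOH) against 74.8 and 81.1 TPM (OHT), higher in both. Primitive endoderm markers (14.5 to 21.4 TPM) and neuroectoderm markers (23.3 to 28.5 TPM) overlapped between groups. The part of these markers in the results below was not tested.

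Levels within the pathway spanned several orders of magnitude. In EtOH the order by mean TPM was Ctnnb1 (329), Tcf7l1 (92.0), Tcf7 (17.7), Znrf3 (6.56), Axin2 (3.27), Lef1 (1.48), Sp5 (0.642), Nkd1 (0.533), Dkk1 (0.111) and Rnf43 (0.0294). Neighbours in this order had separate library ranges except Sp5 and Nkd1, which overlapped. With OHT the first 5 places were the same, followed by Nkd1 (1.20), Sp5 (0.601), Lef1 (0.549), Dkk1 (0.146) and Rnf43 (0.0816). Ranges there overlapped between Sp5 and Lef1 and between Dkk1 and Rnf43. Lef1 thus stood above Sp5 in both EtOH libraries, and within the range of Sp5 in both OHT libraries.

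**Figure D1:**
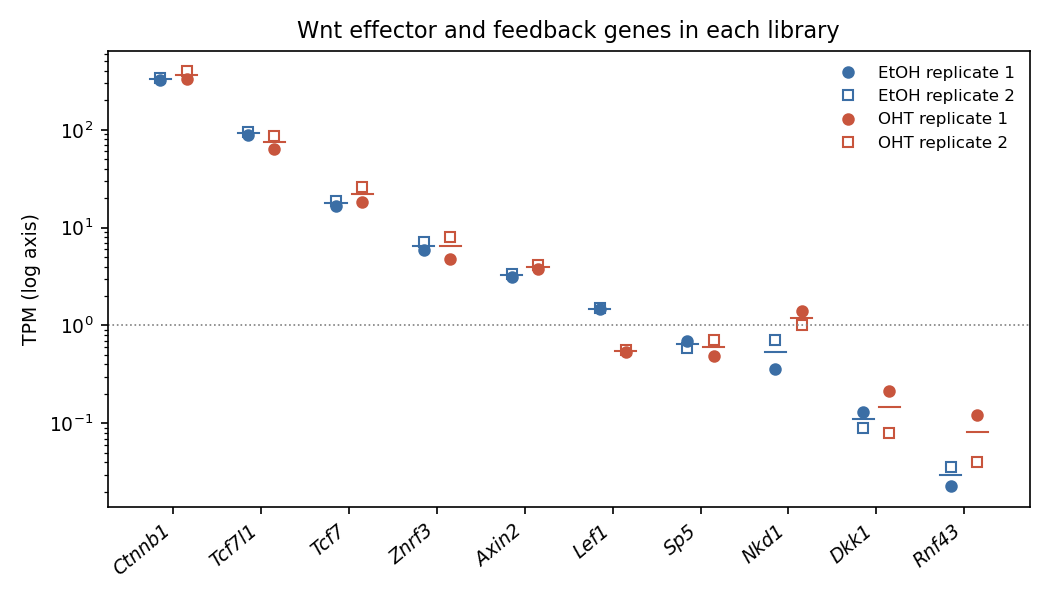
TPM (log axis) of the 10 Wnt genes in each EtOH (blue) and OHT (red) library, with filled circles for replicate 1, open squares for replicate 2 and bars for group means; the dotted line is the minimum mean of 1 TPM for testing. Lef1 has group means of 1.48 (EtOH) and 0.549 (OHT) TPM with replicates close together. Nkd1 (0.533 and 1.20 TPM) and Rnf43 (0.0294 and 0.0816 TPM) are also separate between groups, with replicates further apart. Axin2 and Tcf7l1 are separate by less, and the groups of Ctnnb1, Tcf7, Znrf3, Sp5 and Dkk1 overlap.

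Groups were compared with limma on log2(TPM + 1) over the 12029 genes averaging 1 TPM or more, and p-values were adjusted over all of them. Of the 10 Wnt genes 6 reached that mean and none passed. Over all genes tested, 0.0416% passed, 1 gene (0.00831%) higher and 4 (0.0333%) lower. Before adjustment, 1 of the 6 (Lef1, lower) had p under 0.05, where 4.46% of all genes tested were lower at that level and 6.02% higher. Group ranges were separate for 3 of the 6, Axin2 higher and Lef1 and Tcf7l1 lower. Over all genes tested they were separate for 42.4%, with 23.1% higher and 19.4% lower. A share that near the background is no result about these genes. In bulk RNA, fewer cells expressing a gene and less RNA per cell cannot be told apart.

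Among the effectors, Lef1 showed the largest log2(TPM + 1) difference of the 6 genes tested. Lef1 (ENSMUSG00000027985.15, GRCm38 chromosome 3, 131110471 to 131224356, plus strand, protein-coding) encodes a TCF/LEF factor that mostly activates targets together with beta-catenin. It read 1.47 and 1.50 TPM (EtOH) against 0.531 and 0.568 TPM (OHT). Both OHT libraries were low, close to each other, and well apart from the EtOH pair. The ratio of the group means in TPM was 0.371. On the log2(TPM + 1) scale the difference was -0.68 (SE 0.15, 95% interval -1.06 to -0.30), with an unadjusted limma p of 0.00458, rank 204 of 12029, and an adjusted p of 0.267.

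Lef1 did not pass in this fit, and its call turned on, among other settings, which libraries were kept. It passed without OHT replicate 1 (limma adjusted p = 0.0298) and without OHT replicate 2 (limma adjusted p = 0.0278). Such fits take the spread from the EtOH pair alone and assume it for the remaining OHT library. Without EtOH replicate 1 or 2 its mean was under 1 TPM, and with the gene kept in, the log2 difference was -0.69 and -0.67 (adjusted p = 1.00 for each). At this low level the log2 difference also depends on the pseudocount, being -1.29 at 0.1 and -0.22 at 5. Since Lef1 passed the minimum mean only through its EtOH libraries, its presence among the genes tested is itself tied to the difference. GENCODE lists Gm43352 on the opposite strand with 1208 exonic bases shared with Lef1. The labels do not say whether the libraries kept strand, so reads of the pair may not be separable.

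Tcf7l1 was the most abundant of the DNA-binding effectors. It encodes the TCF factor that mainly represses pluripotency genes in these cells (ENSMUSG00000055799.14, chromosome 6, 72626378 to 72789254, minus strand). It read 88.7 and 95.4 TPM (EtOH) against 62.9 and 85.5 TPM (OHT). The groups did not overlap, OHT being lower, though OHT replicate 2 came close to EtOH replicate 1. The log2 difference was -0.32 (SE 0.16, 95% interval -0.72 to 0.077, limma adjusted p = 0.557), so it did not pass. Without OHT replicate 2 its log2 difference was -0.54, and without OHT replicate 1 it was -0.10. GENCODE's Gm15401, on the opposite strand, shares 179 exonic bases with it.

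Tcf7 encodes TCF1, another activating family member, also known as a T cell factor (ENSMUSG00000000782.17, chromosome 11, 52252371 to 52283014, minus strand). It read 16.4 and 18.9 TPM (EtOH) against 18.3 and 25.7 TPM (OHT). OHT replicate 1 lay between the EtOH libraries, so the groups overlapped, and replicate 2 stood alone above. The log2 difference was 0.29 (SE 0.20, 95% interval -0.21 to 0.78, limma adjusted p = 0.688). Without OHT replicate 1 it was 0.52, and without the other OHT library 0.051.

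Summed over the TCF/LEF genes Tcf7, Tcf7l1, Tcf7l2 and Lef1, TPM came to 108 and 118 (EtOH) against 83.7 and 114 (OHT), and OHT replicate 2 lay between the EtOH libraries. Tcf7l2, the remaining vertebrate family member, was added for this sum and not for its values. Tcf7l1 made up 81.8% and 80.8% of the sum with EtOH and 75.2% and 74.9% with OHT. Tcf7 made up 15.2% and 16.0% with EtOH and 21.9% and 22.6% with OHT. Lef1 contributed 1.35% and 1.27% (EtOH) against 0.634% and 0.498% (OHT), and the share of Tcf7l2 lay between 1.64% and 2.32% throughout. Shares of Tcf7l1 and Lef1 were lower with OHT and those of Tcf7 and Tcf7l2 higher, but the shares add up to the whole and so are tied to each other. In TPM itself Tcf7 and Tcf7l2 (1.78 and 2.23 against 1.94 and 2.29) overlapped between groups. The exact two-sided permutation test over libraries gave p = 0.333 for each of these 4 shares, which is the smallest that 2 libraries against 2 allow. The proportions are of transcripts as counted by TPM, and isoforms, which for Lef1 and Tcf7 include forms without the beta-catenin binding region, are not separated in the table.

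Ctnnb1 encodes beta-catenin itself, which also joins cadherins to the cytoskeleton at cell junctions (ENSMUSG00000006932.18, chromosome 9, 120929216 to 120960507, plus strand). It read 322 and 336 TPM (EtOH) against 332 and 394 TPM (OHT). OHT replicate 1 lay between the EtOH libraries. The log2 difference was 0.14 (SE 0.11, 95% interval -0.14 to 0.41, limma adjusted p = 0.739). Without OHT replicate 1 it was 0.26, and in the fit lacking OHT replicate 2 it stood at 0.011. Beta-catenin is regulated mainly through protein stability, which was not measured here. Ulk4, on the opposite strand and at most 0.505 TPM, shares 759 exonic bases with Ctnnb1.

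**Figure D2:**
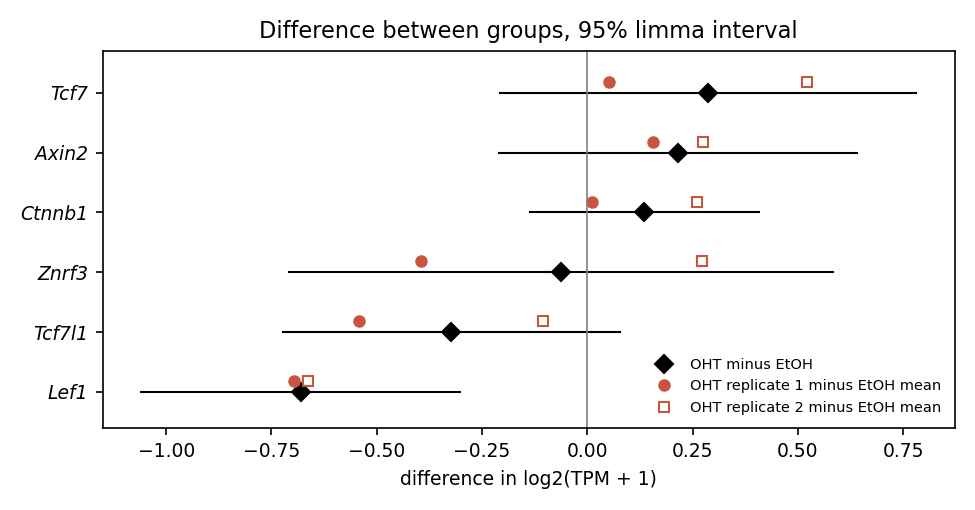
Difference between OHT and EtOH in log2(TPM + 1) for the 6 Wnt genes tested (black diamonds, with 95% limma intervals), and each OHT library minus the EtOH mean (red circle replicate 1, open square replicate 2). The interval excludes 0 for Lef1 alone, where both OHT libraries lie at -0.70 and -0.66, and for Znrf3 they lie on opposite sides of 0.

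The feedback genes were expressed at low levels and none passed. Axin2 encodes a scaffold of the destruction complex and is a direct Wnt target widely used as a readout of pathway activity (ENSMUSG00000000142.16, chromosome 11, 108920349 to 108950783, plus strand). It read 3.16 and 3.37 TPM (EtOH) against 3.76 and 4.16 TPM (OHT). The OHT pair was higher, without overlap, by a margin no wider than the gap within the OHT pair. The log2 difference was 0.22 (SE 0.17, 95% interval -0.21 to 0.64, limma adjusted p = 0.736), and 0.14 with each library's trend with transcript length and GC content removed. Gm11670, on the opposite strand, shares 209 exonic bases with it.

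Znrf3 encodes a membrane ubiquitin ligase that removes Frizzled receptors (ENSMUSG00000041961.15, chromosome 11, 5276324 to 5444847, minus strand). It read 5.98 and 7.15 TPM (EtOH) against 4.73 and 8.10 TPM (OHT). The OHT libraries lay outside the EtOH range on opposite sides. The log2 difference was -0.062 (SE 0.26, 95% interval -0.71 to 0.58, limma adjusted p = 0.960), and its sign turned to 0.27 without OHT replicate 1 and to 0.050 without EtOH replicate 2.

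The other 4 feedback genes had means under 1 TPM and were not in the main test. Nkd1, which encodes an inhibitor that acts on Dishevelled (chromosome 8, 88521354 to 88594884, plus strand), read 0.357 and 0.709 TPM (EtOH) against 1.39 and 1.01 TPM (OHT). The OHT pair was higher, without overlap, and the EtOH pair differed widely. In the fit with no filter on low values its log2 difference was 0.53 (SE 0.17, limma adjusted p = 0.433). Rnf43, which encodes a ubiquitin ligase related to ZNRF3 (chromosome 11, 87662722 to 87735539, plus strand), read 0.0230 and 0.0358 TPM (EtOH) against 0.123 and 0.0404 TPM (OHT). The groups did not overlap, and 1 OHT library stood apart from the other 3. The log2 difference was 0.070 (SE 0.057, adjusted p = 0.739).

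Sp5, which encodes a zinc-finger factor that represses other Wnt targets (chromosome 2, 70474923 to 70477729, plus strand), read 0.700 and 0.584 TPM (EtOH) against 0.485 and 0.716 TPM (OHT). The groups overlapped, with both EtOH values inside the OHT range (log2 difference -0.040, SE 0.11, limma adjusted p = 0.933 in the fit with no filter). Dkk1, which encodes a secreted inhibitor that binds LRP receptors (chromosome 19, 30545863 to 30549665, minus strand), read 0.132 and 0.0901 TPM (EtOH) against 0.213 and 0.0793 TPM (OHT). These groups also overlapped (0.043, SE 0.076, adjusted p = 0.889). Sp5 and Dkk1, whose windows above hold the full motif, were thus low and overlapping in these libraries. Over all 10 genes, group ranges were separate for 5 (Axin2, Nkd1 and Rnf43 higher, Lef1 and Tcf7l1 lower). Of the 17757 genes with a value above 0 they were separate for 39.9%, with 21.6% higher and 18.3% lower.

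The replicates themselves differed. For all 6 genes tested, replicate 2 read higher than replicate 1 in both groups, which held for 53.4% of all genes tested (76.1% within OHT and 62.6% within EtOH). The difference between the OHT replicates on the log2 scale was 0.035 for Lef1, 0.12 for Axin2, 0.25 for Ctnnb1, 0.44 for Tcf7l1, 0.47 for Tcf7 and 0.67 for Znrf3. Between the EtOH replicates it ran from 0.016 for Lef1 to 0.22 for Znrf3. Znrf3 has the longest transcript of the 6 (6311 bases), and Tcf7 the shortest (2471 bases). Across 12016 genes, which share these libraries, the OHT difference followed log2 transcript length with Pearson r = 0.53, and the EtOH difference with r = 0.27. With trends with length and GC content removed, the log2 differences between groups were -0.64 for Lef1 (adjusted p = 0.198), -0.41 for Tcf7l1 (0.412), 0.28 for Tcf7 (0.659) and 0.14 for Ctnnb1 (0.663).

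**Figure D3:**
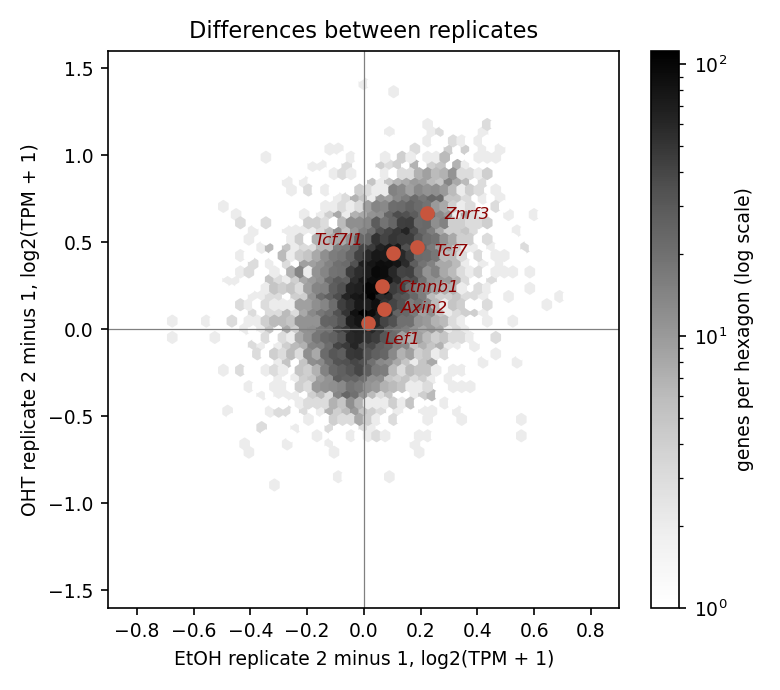
Replicate 2 minus replicate 1 in log2(TPM + 1), EtOH on the horizontal and OHT on the vertical axis, for all genes tested (grey hexagons shaded by number of genes, log scale) with the 6 Wnt genes in red; a few genes fall outside the axes. All 6 lie above 0 on both axes, from Lef1 near the origin to Znrf3 at 0.22 and 0.67.

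The rest of the pathway was described through 8 lists of ligands, receptors, inhibitors, relay proteins, nuclear cofactors, other responsive genes, pluripotency genes repressed by TCF7L1 and junction proteins. They hold 138 genes beyond the 10, with a few on more than a single list, and 97 were expressed enough to test. None passed in either direction, while 13, each of them higher, had p below 0.05 before adjustment, where 6.02% of all genes tested were higher at that level. Group ranges were separate for 33 higher and 7 lower of the 97, 41.2% in all against 42.4% of all genes tested. By direction, 23.1% of all genes tested were higher and 19.4% lower. Their median log2 difference was 0.15, beside 0.023 for all genes tested. Set against the EtOH mean, OHT replicate 1 had a median of -0.060 and OHT replicate 2 of 0.29, beside -0.094 and 0.14 for all genes tested, so its sign differed between the OHT libraries. Of the 31 genes chosen by rule from these lists, some of them for small p in these same libraries, none passed with all 4 libraries. Fits without an OHT library called some of the 31, but they also called far more of all genes. Such fits take the spread from the EtOH pair alone.

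Wnt ligands were scarce. Of 25 genes for ligands, their release and R-spondins, 6 were tested, with a median log2 difference of 0.11. Group ranges were separate for 3 higher and none lower (23.1% and 19.4% of all genes tested). The most abundant was Porcn, the acyltransferase that lipid-modifies Wnt proteins, at 52.5 and 51.2 TPM (EtOH) against 47.2 and 54.9 TPM (OHT). The carrier gene Wls read 6.36 and 6.19 TPM (EtOH) against 6.83 and 7.42 TPM (OHT). Rspo1, which encodes a secreted enhancer of Wnt signaling, read 1.69 and 1.93 TPM (EtOH) against 2.66 and 3.30 TPM (OHT) (log2 difference 0.50, SE 0.18, limma adjusted p = 0.430). The ligand gene Wnt6 read 1.58 and 1.28 TPM (EtOH) against 2.51 and 2.05 TPM (OHT) (0.43, SE 0.18, adjusted p = 0.484).

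Receptor genes had a median log2 difference of 0.23 over the 11 of 15 tested, 5 of them with both OHT libraries above both EtOH libraries and none below, where 23.1% and 19.4% of all genes tested were so. In OHT replicate 1 the median was 0.088 and in OHT replicate 2 it was 0.44. The co-receptor gene Lrp5 read 10.2 and 10.1 TPM (EtOH) against 11.9 and 17.7 TPM (OHT), and Lrp6 read 15.9 and 20.5 TPM (EtOH) against 19.5 and 33.1 TPM (OHT). For both co-receptors OHT replicate 2 was the highest library. Without OHT replicate 1 the log2 differences were 0.75 for Lrp5 and 0.84 for Lrp6, and without OHT replicate 2 they were 0.22 and 0.10. The Frizzled gene Fzd9 was more even, at 4.19 and 4.05 TPM (EtOH) against 5.95 and 6.05 TPM (OHT) (0.45, SE 0.17, limma adjusted p = 0.442). Fzd5, at 21.8 and 22.3 TPM (EtOH) against 21.1 and 31.4 TPM (OHT), and the R-spondin receptor gene Lgr4, at 26.8 and 29.2 TPM (EtOH) against 21.7 and 31.6 TPM (OHT), overlapped between groups.

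Secreted and surface inhibitors had a median of 0.23 over the 9 of 17 tested, 5 with all OHT values above and 1 with all below (23.1% and 19.4% of all genes tested). Sfrp1, which encodes a secreted protein that binds Wnt ligands, read 38.4 and 40.1 TPM (EtOH) against 51.3 and 72.0 TPM (OHT) (log2 difference 0.62, SE 0.18, limma adjusted p = 0.334). Its relative Sfrp4 read 5.77 and 4.52 TPM (EtOH) against 8.74 and 8.06 TPM (OHT) (0.62, SE 0.19, adjusted p = 0.366). Sfrp5 read 15.4 and 17.8 TPM (EtOH) against 19.5 and 19.7 TPM (OHT) (0.23, SE 0.15, adjusted p = 0.669). Notum, which encodes an enzyme that removes the lipid from Wnt proteins, overlapped, at 39.6 and 37.6 TPM (EtOH) against 38.3 and 39.4 TPM (OHT).

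Of the 26 cytoplasmic relay and destruction complex genes 25 were tested, with a median of 0.094, at -0.16 in OHT replicate 1 and 0.35 in OHT replicate 2. Group ranges were separate for 4 higher and 1 lower (23.1% and 19.4% of all genes tested). OHT replicate 2 exceeded OHT replicate 1 for all 25, where 76.1% of all genes tested did. The abundant members Csnk1a1, the kinase gene that primes beta-catenin for degradation (166 and 173 TPM, against 158 and 207 TPM with OHT), Tnks2 (99.5 and 109 TPM, 91.2 and 138 TPM) and Csnk1d (70.8 and 75.9 TPM, 61.3 and 79.0 TPM) all had overlapping groups. Nkd2, the relative of Nkd1, read 0.558 and 0.688 TPM (EtOH) against 1.28 and 2.06 TPM (OHT) (0.70, SE 0.20, limma adjusted p = 0.330). Like Lef1, it reached the minimum mean through the libraries of 1 group, here OHT, so its presence among the genes tested is tied to the difference. Both Nkd genes read higher in each OHT library than in either EtOH library. So did 21.6% of the 17757 genes with a value above 0. Nkd2 was named for its small p and did not pass, and Nkd1 was not in the main test. Dact2 read 13.6 and 14.6 TPM (EtOH) against 18.7 and 22.0 TPM (OHT) (0.49, SE 0.16, adjusted p = 0.383).

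Among nuclear cofactors (18 of 20 tested, median 0.14), group ranges were separate for 5 higher and 2 lower (23.1% and 19.4% of all genes tested). The Groucho-related gene Tle5 read 189 and 181 TPM (EtOH) against 223 and 226 TPM (OHT) (log2 difference 0.28, SE 0.090, limma adjusted p = 0.372). Chd8, which encodes a remodeller that binds beta-catenin, read 92.1 and 86.7 TPM (EtOH) against 56.2 and 82.6 TPM (OHT) (-0.38, SE 0.19, adjusted p = 0.550). Its log2 difference was -0.66 without OHT replicate 2 and -0.11 without OHT replicate 1. The corepressor gene Ctbp2 overlapped, at 145 and 149 TPM (EtOH) against 134 and 162 TPM (OHT). Junction genes (6 of 7 tested, median 0.053) did not separate the groups for any gene, where 42.4% of all genes tested did. Cdh1, which encodes the cadherin that holds beta-catenin at the membrane, read 134 and 145 TPM (EtOH) against 136 and 185 TPM (OHT). Ctnna1 read 187 and 198 TPM (EtOH) against 182 and 230 TPM (OHT), and Jup read 88.4 and 93.6 TPM (EtOH) against 83.6 and 102 TPM (OHT).

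Other genes known to respond to Wnt in some tissue had a median of 0.056 over the 15 of 22 tested. Group ranges were separate for 6 higher and 2 lower of the 15, where 23.1% and 19.4% of all genes tested were so. The cell cycle gene Ccnd1 (69.7 and 72.9 TPM with EtOH, 63.1 and 78.2 TPM with OHT) and the growth factor gene Fgf4 (140 and 142 TPM, 135 and 162 TPM) overlapped.

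Pluripotency genes repressed by TCF7L1 were all tested, 10 of 10, with a median of 0.19. Group ranges were separate for 6 higher and 1 lower (23.1% and 19.4% of all genes tested). Before adjustment 3, each higher, had p below 0.05 (6.02% of all genes tested), and none passed. Klf2, a naive pluripotency factor gene, read 456 and 431 TPM (EtOH) against 622 and 567 TPM (OHT) (log2 difference 0.42, SE 0.092, limma adjusted p = 0.265). Tbx3 read 57.3 and 58.4 TPM (EtOH) against 80.5 and 106 TPM (OHT) (0.67, SE 0.15, adjusted p = 0.267). Pou5f1, which encodes OCT4, read 1856 and 1862 TPM (EtOH) against 2229 and 2106 TPM (OHT) (0.22, SE 0.080, adjusted p = 0.430). Nanog read 966 and 975 TPM (EtOH) against 1047 and 1131 TPM (OHT) (0.16, SE 0.084, adjusted p = 0.561). Each of these 4, named for level or small p, was higher in both OHT libraries. Among the rest of the list, Esrrb and Tcl1 were also higher, and Sox2, Nr5a2 and Tfcp2l1 overlapped. Nr0b1 was lower, at 81.7 and 82.7 TPM (EtOH) against 76.6 and 75.6 TPM (OHT). Tcf7l1 was lower in both OHT libraries but did not pass, and a relation between it and this list was not tested.

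**Figure D4:**
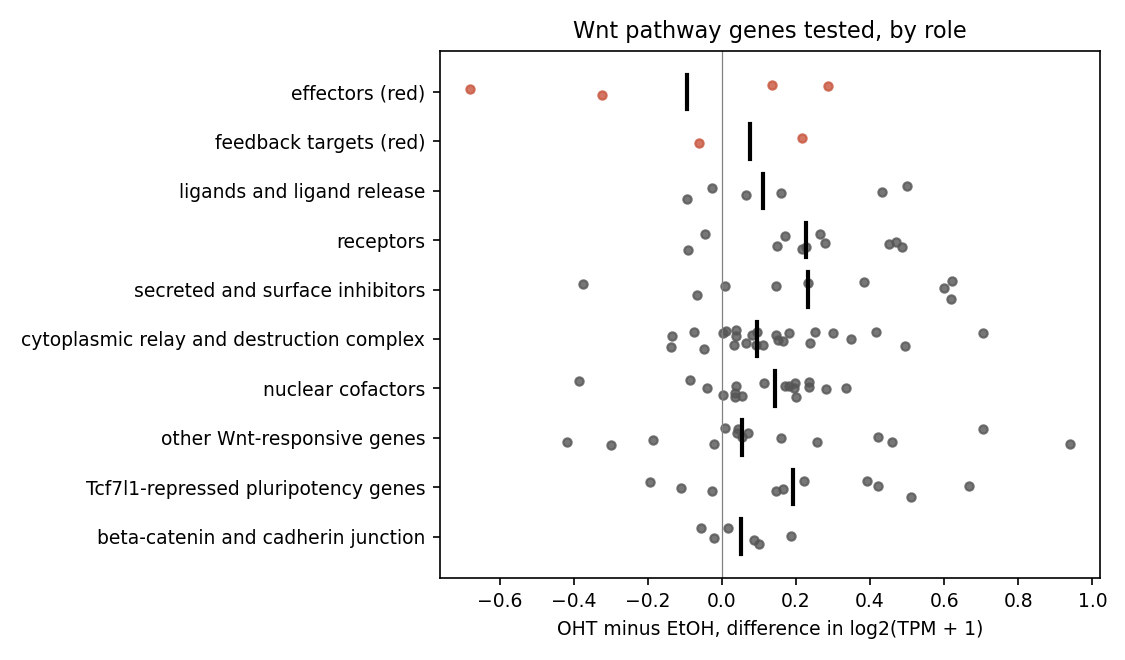
OHT minus EtOH difference in log2(TPM + 1) for each Wnt pathway gene tested, by role, with the 6 genes of the set described here in red, other genes in grey and a black bar at each list's median. The red points run from -0.68 (Lef1) to 0.29 (Tcf7), and the 8 grey lists have medians between 0.053 and 0.23.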

How the data were processed

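The 4 libraries, all labelled batch 2, are poly(A)-selected RNA. The authors deposited TPM values, and the submitters' processing notes name Trim Galore, Salmon, GRCm38 and mm10, without versions or order. The annotation release is not given in the sources used here. Each column sums to 1000000, so depth is unknown and no counting interval was computed. The table's 2 further columns of values match no sample used here and were not used.

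Genes averaging 1 TPM or more were compared as log2(TPM + 1) with limma 3.58.1 in R 4.3.3 (mean-variance trend, two-sided, prior degrees of freedom 4.01, residual 2), with Benjamini-Hochberg adjustment over 12029 genes and a threshold of 0.05. On data simulated for this comparison (20 sets of 12029 genes, 200 changed), it recovered 81.4% of 2-fold and 99.95% of 4-fold changes, with 11.4 false among 192.7 calls on average. These folds were set on the log2(TPM + 1) scale, where a gene of low TPM needs a larger ratio in TPM to reach them. The recovery therefore does not hold for a 2-fold change in TPM of low genes such as Lef1. Noise was drawn separately for each gene, with a spread smoothed over genes of similar level, which real genes need not share. It was also equal in both groups, whereas the OHT pair here differs more than the EtOH pair.

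The 10 genes and the lists were chosen with earlier results of these data known. Named from each list were genes past the threshold, the 3 of highest mean TPM and the 2 of smallest p. A gene that this rule names is not reported here. Coordinates, transcript lengths (longest transcript) and overlaps were taken from GENCODE mouse release 21 (GRCm38), where 22213 of 22266 gene identifiers were found, ignoring version. Near-identical transcripts were sought with blastn 2.17.0 at 95% identity over at least 50% of a transcript. Of the 10 genes only Ctnnb1 had one, the overlapping Ulk4. Promoters are from RefSeq (GRCm38.p6). Alternatives were other pseudocounts, filters, scalings and variance models, a replicate block, removal of length and GC trends (splines with 4 degrees of freedom each), and leaving out each library.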

Additional observations from a re-analysis of the deposited data

How the results depend on the processing

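Of 115 recomputed values with a test for the 10 genes, over 19 alternatives, 100 counted as unchanged. Another 4, all for Znrf3, turned sign, and the rest passed in the same direction. Unchanged means the same direction and side of the threshold. For Sp5, Nkd1, Dkk1 and Rnf43, which had no main test, it means a log2 difference within the pooled SD of the main value. The 19 include the refits described below that keep the genes tested, so some leave-one-out results count more than once. Those that passed were Lef1, Tcf7l1, Tcf7 and Ctnnb1, without an OHT library, and Lef1 with the replicate block. Fits without an OHT library take the spread from the EtOH pair alone and call far more of all genes. Without OHT replicate 1, 12040 genes were tested, 6 of them among the 10 and 97 among the other pathway genes. Without OHT replicate 2 these numbers were 11932, 6 and 96. The calls of these fits counted next are no result specific to the pathway genes. With 1 library left out, calls over all genes ran from 30 to 3104 (5 with all libraries), among the 10 genes from 0 to 3, and among the other pathway genes from 0 to 42. Without OHT replicate 1 those 42 were all higher, and without OHT replicate 2 they were 9 higher and 8 lower. Refits keeping the genes tested with all 4 libraries, chosen after seeing the data, gave 46, 34, 2957 and 2478 calls over all genes without EtOH replicate 1, EtOH replicate 2, OHT replicate 1 and OHT replicate 2, and 39 and 14 among the other pathway genes without OHT replicates 1 and 2.

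The median of the other pathway genes was -0.065 without OHT replicate 2, 0.29 without OHT replicate 1 and 0.092 without EtOH replicate 1. It was 0.097 with length and GC trends removed, 0.094 without a filter and 0.094 at a pseudocount of 5. Calls over all genes were 0 without a filter on low values (1260 had an unadjusted p under 0.05 in the filtered limma test), 3 under median of ratios scaling, quantile normalization or limma without a trend, and 45 with length and GC trends removed.

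The labels give replicates 1 and 2 in each group without saying that a number marks a shared culture or day. Across genes, replicate 2 minus 1 correlated between the groups at r = 0.29. With the replicate number as a block, 474 of the 12029 genes tested passed (261 higher, 213 lower). Among them were 1 of the 6 Wnt genes tested (Lef1, lower, limma adjusted p = 0.0227) and 7 of the 97 other pathway genes tested, all higher.

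Leaving out 1 library at a time turned the sign of small log2 differences, none of which passed with all libraries. The ranges were -0.40 to 0.27 for Znrf3 (0.050 without EtOH replicate 2), -0.17 to 0.13 for Ccnd1, -0.031 to 0.40 for Cdh1, -0.10 to 0.29 for Csnk1a1, -0.25 to 0.11 for Csnk1d and -0.13 to 0.14 for Ctbp2. They were -0.079 to 0.25 for Ctnna1, -0.059 to 0.20 for Fgf4, -0.060 to 0.49 for Fzd5, -0.12 to 0.16 for Jup and -0.35 to 0.17 for Lgr4. For Notum, Porcn and Tnks2 they were -0.026 to 0.046, -0.13 to 0.081 and -0.19 to 0.41. Median of ratios scaling gave -0.035 for Ctbp2, -0.019 for Jup and -0.027 for Notum, removal of length and GC trends gave -0.050, -0.063 and -0.078, and quantile normalization gave 0.0055 for Ccnd1. The cause of these changes was not tested. Depth is unknown, so no limit of detection can be given for Dkk1 and Rnf43.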
